A study of Danio rerio with 3 samples.

Results

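Hox cluster genes encode homeodomain transcription factors that give cells of the body axis their position along the head-to-tail line. They sit in clusters, and within a cluster the genes of low paralogue number lie at one end and act in the hindbrain and anterior trunk, while those of high number lie at the other end and act in the tail and the fins. In vertebrate embryos the genes are usually switched on in the order in which they lie, low numbers first, a property known as temporal collinearity. The zebrafish carries extra clusters left by a genome duplication in ray-finned fish, so that many members exist as an a and a b copy.

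The members described here are all genes on the array whose name is hox, a cluster letter from a to d, a paralogue number and a copy letter. This rule, which uses no measured value, found 48 of 27216 genes, measured by 135 of 43603 probes. They spread over 7 clusters, with 7 members in hoxaa, 5 in hoxab, 11 in hoxba, 4 in hoxbb, 11 in hoxca, 3 in hoxcb and 7 in hoxda. All 48 symbols stand in the RefSeq table of assembly GRCz12tu, and 115 of the 135 probes carry an accession that names the same gene there; none carries an accession of another gene.

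RNA came from whole wild-type zebrafish embryos collected at 5, 12 and 24 hours post fertilisation (hpf), bred from fish bought in a pet shop. Between 0 and 2 hpf the eggs had been bathed in cortisol at 5 mg/L (13.8 µM), the main stress steroid of fish, or in its ethanol vehicle at 2 ml/L, and both groups then stayed at 28.5 °C. On every 2-colour array 200 ng of vehicle RNA was labelled green (Cy3) and cortisol RNA red (Cy5), with no dye swap. There is 1 set of values per stage, which by its decimals reads as the authors' mean over the 4 replicates stated for 5 hpf and the 3 stated for 12 hpf, and as a single array at 24 hpf. No spread between replicates can be computed, so no value here carries a test. Differences are described by size, and the small number of arrays limits their precision.

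A gene counted as above the controls where at least 1 of its probes was brighter than a limit set 2 SD above the mean of the 153 negative control spots. In the green channel this limit was a signal of 51.4, 55.9 and 55.7 at the 3 stages. Hox genes had more probes per gene than the array as a whole, with 135 probes for 48 genes against 43603 for 27216. A rule that needs 1 probe is therefore easier for them to pass, which limits the comparison with the share of all genes. As a check of the stage labels, vehicle signals fell at least 2-fold from 5 to 24 hpf in 11 of 11 markers of early embryos and rose at least 2-fold in 13 of 14 markers of late ones. Each stage was measured on its own arrays, so stage and array cannot be told apart. In whole-embryo RNA, fewer cells of a type and less RNA per cell cannot be told apart either. Probes differ in how strongly they respond, so a level or a size of change is compared between stages for the same gene and not ranked firmly between genes.

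At 5 hpf, as gastrulation begins, the Hox genes were largely silent by this measure. Of the 48 members 23 were above the controls in vehicle embryos, against 74% of all genes on the array. Nearly all of these were barely above: of 135 Hox probes 36 passed the limit, 3 had a signal over 100, and the brightest of the rest reached 66.6. When every probe of a gene had to pass, 5 members were left at 5 hpf. The 5 hpf status of most members is therefore at the edge of detection.

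By 12 hpf, during early segmentation, 43 of 48 members were above the controls, against 74.1% of all genes, and 125 of the 135 probes were. By 24 hpf there were 47 members, against 72.1% of all genes, and 133 probes. Of the members 22 first passed the limit at 12 hpf, as 8.03% of all genes did, and 2 first passed it at 24 hpf, as 3.36% did. The 2 late ones were hoxa13a and hoxc13b. Passing the limit did not by itself order the genes by number: at 5 hpf 7 of the 9 genes of paralogue numbers 12 and 13 passed it, all with signals under 100, against 4 of 10 of numbers 1 to 3, 6 of 16 of numbers 4 to 8 and 6 of 13 of numbers 9 to 11. At 12 hpf 5 of these 9 passed, so for them the status moved within the edge of detection. The only member that passed at no stage was hoxa11a, with a single probe at 47.6, 55 and 55.5.

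A stricter mark, a vehicle signal over 100 in at least 1 probe, was chosen after the values had been seen. It too is easier to reach for genes with more probes. Under it 3 members were present at 5 hpf (42.4% of all genes), 35 at 12 hpf (44.8%) and 38 at 24 hpf (40%). Members that first reached it at 12 hpf numbered 32 of 48, against 8.41% of all genes. The mark was first reached at 24 hpf by 3 members, against 2.18% of all genes, and these were hoxb13a, hoxc13a and hoxd13a. The other 3 genes of paralogue number 13 did not reach it at any stage. The 10 members that never reached it also included hoxc12a, hoxc12b, hoxc11a, hoxc10a, hoxa11a, hoxb4a and hoxa1a, so dim probes occur at the low end of the numbering too.

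**Figure D1:**
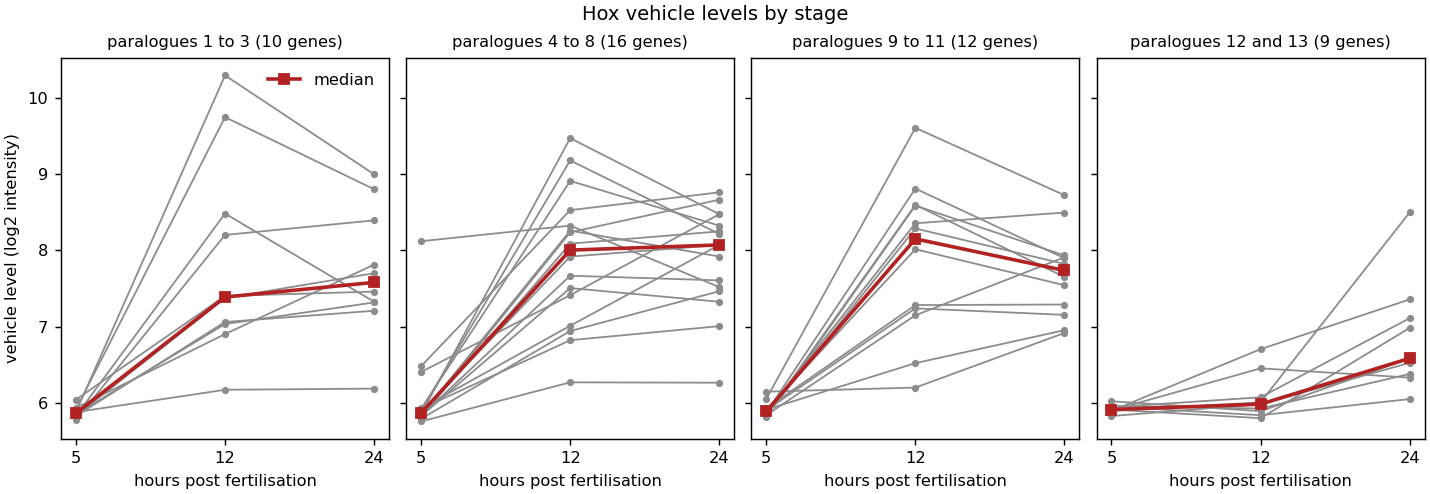
Vehicle level (log2 intensity, scaled between arrays) of each measured Hox gene at 5, 12 and 24 hpf, in 4 panels by paralogue number, with stages evenly spaced. Grey lines are single genes and red squares the panel's median. In the first 3 panels most lines rise between 5 and 12 hpf, and in the panel of paralogues 12 and 13 most rise after 12 hpf.

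Between 5 and 12 hpf, 31 of the 48 members became at least 2-fold brighter in vehicle embryos, against 12.1% of all genes tested, and 0 became at least 2-fold dimmer, against 12.1%. The count of 0 says little. At 5 hpf 3 of the 135 Hox probes had a signal over 100, so most members were too dim to fall 2-fold. Over all 48 members, with no filter on low signals, the median log2 change was 1.35, compared with -0.01 over all genes. The rise was found in every cluster: 3 of 7 members in hoxaa, 4 of 5 in hoxab, 9 of 11 in hoxba, 4 of 4 in hoxbb, 5 of 11 in hoxca, 1 of 3 in hoxcb and 5 of 7 in hoxda. In 39 of the 45 members that could be compared, every measured probe was brighter at 12 hpf. In 14 of them every measured probe was at least 2-fold brighter. The pooled SD between probes of a gene was 1.14 on the log2 scale, so the direction is better determined than the size.

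Of paralogues 1 to 3, which pattern the hindbrain and the pharyngeal arches, 8 of 10 rose at least 2-fold by 12 hpf. The most prominent was hoxb1b, which in zebrafish acts early in the hindbrain. Its vehicle level was 5.88 at 5 hpf, 10.29 at 12 hpf and 9.0 at 24 hpf (log2 intensity), a change of 4.41 or 21.3-fold between the first stages. At 5 hpf 1 of its 3 probes passed the controls, at 52 against the limit of 51.4. That level is therefore a reading at the edge of detection, and the fold is approximate. Its copy hoxb1a, which gives the fourth hindbrain segment its identity, stood at 5.83, 8.48 and 7.32. That is a 6.30-fold rise over a 5 hpf reading at which no probe passed the controls. The other 2 genes of paralogue number 1 reached less than 2-fold at 12 hpf: hoxa1a changed by 0.29, and hoxc1a by 0.97.

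Genes of paralogue number 2 shape the arches behind the jaw. The log2 change from 5 to 12 hpf was 1.54 for hoxa2b, a selector of the second pharyngeal arch, and 1.36 for hoxb2a. All 4 genes of paralogue number 3 rose at least 2-fold. The vehicle level of hoxc3a was 5.91, 9.74 and 8.80, 14.2-fold higher at 12 hpf, with 1 of its 4 probes above the controls at 5 hpf. The other 3 changed by 2.42 for hoxb3a, 1.23 for hoxd3a and 1.18 for hoxa3a. In RefSeq the span of hoxc3a overlaps those of hoxc4a, hoxc5a, hoxc6a, hoxc8a and hoxc9a, and that of hoxb3a those of hoxb4a, hoxb5a and hoxb6a, and likewise that of hoxb1b those of hoxb5b and hoxb6b, that of hoxa3a those of hoxa4a and hoxa5a, and that of hoxd3a that of hoxd4a. Whether a probe of these genes sees transcripts of a neighbour as well was not tested.

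Of paralogues 4 to 8, which act in the posterior hindbrain, spinal cord and trunk, 13 of 16 rose at least 2-fold by 12 hpf. The vehicle level of hoxb7a was 5.85, 9.47 and 8.47, 12.3-fold higher at 12 than at 5 hpf, where none of its probes passed the controls. The level of hoxc6b was 5.90, 9.18 and 8.21, 9.71-fold higher, again with no probe above the controls at 5 hpf. That of hoxc8a was 5.92, 8.91 and 8.32, or 7.93-fold higher, with 2 of 4 probes above the controls at 5 hpf. In each of these the 12 hpf level was the highest of the 3. The copies hoxb5a and hoxb5b, which in zebrafish help place the pectoral fins, rose by 2.27 and 2.42 on the log2 scale. None of their probes passed the controls at 5 hpf, so these values are approximate.

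The 3 members of this range below 2-fold were hoxa5a at 0.90, hoxb4a at 0.51 and hoxc6a at 0.20. For hoxc6a the small value joins unlike probes. Its vehicle signal was 1456.9, 981 and 267 in 1 probe and 48.8, 143.7 and 80 in the other, so the first fell through both intervals and the second was highest at 12 hpf. The same kind of split was seen in hoxb8a, where 1 probe read 305.9, 196.5 and 265 and another 51.3, 923.5 and 1522. In hoxa4a a probe read 220.8, 462.2 and 338.5 and another 49.6, 1188.5 and 857.5. These 3 bright probes are the only Hox probes with a signal over 100 at 5 hpf; without them 32 members in place of 31 were at least 2-fold higher at 12 hpf. What the bright early probes detect was not tested.

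**Figure D2:**
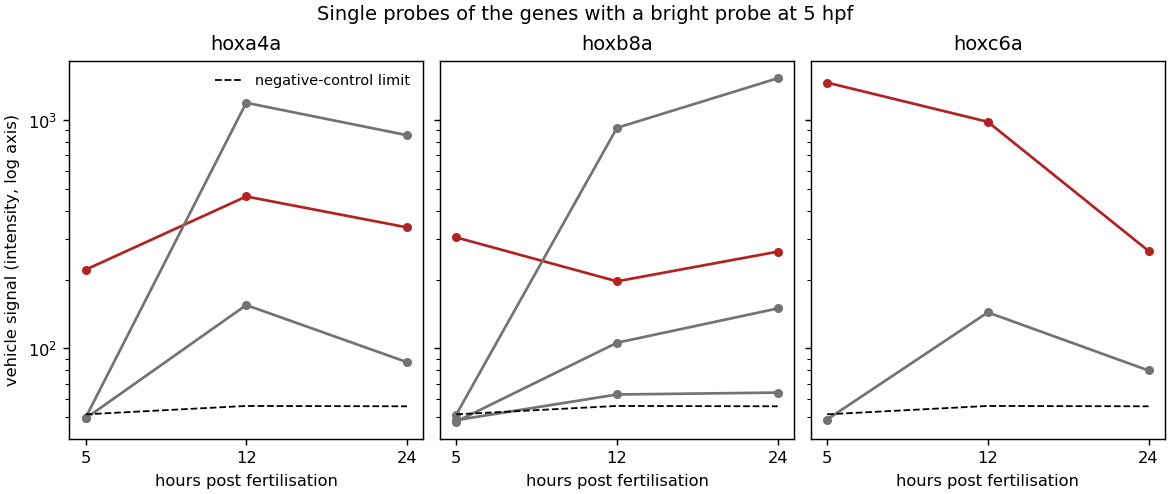
Vehicle signal (intensity, log axis) of every probe of hoxa4a, hoxb8a and hoxc6a at 5, 12 and 24 hpf, with stages evenly spaced. Red lines are the probes with a signal over 100 at 5 hpf, grey lines the other probes of the same gene, and the dashed line is the negative-control limit. At 5 hpf the grey probes lie at or below that limit.

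Paralogues 9 to 11, which act in the posterior trunk and the limb or fin buds, rose by 12 hpf as the lower numbers did, in 10 of 13 members. All 5 genes of paralogue number 9 rose, by 2.11 for hoxb9a, 2.48 for hoxc9a, 2.76 for hoxa9a, 2.77 for hoxa9b and 3.55 for hoxd9a. The vehicle level of hoxd9a was 6.05, 9.60 and 8.72, an 11.8-fold rise, and its 4 probes changed by 2.26 to 4.30. No probe of hoxa9a or hoxa9b passed the controls at 5 hpf, so their values are approximate. Among paralogues 10, whose mouse counterparts suppress ribs in the lumbar region, hoxb10a stood at 5.87, 8.81 and 7.89, 7.66-fold higher at 12 hpf. Its relative hoxa10b rose by 2.45, and neither gene had a probe above the controls at 5 hpf. Below 2-fold were hoxc10a at 0.61 and hoxc11a at 0.05, and hoxa11a was not measured.

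None of the 9 genes of paralogue numbers 12 and 13 rose 2-fold between 5 and 12 hpf in the mean over probes. These genes mark the end of the body axis and the distal fins. The largest change was 0.81, in hoxd12a, whose 5 probes ran from 0.13 to 1.83. The count of 0 therefore depends on averaging probes. It did not hold with plain background subtraction, where 40 of the 45 members tested were at least 2-fold higher. Over the 7 of these 9 genes above the controls at either stage, the mean changes ran from -0.13 in hoxb13a to 0.81. Below the controls at both stages were hoxa13a and hoxc13b. At 12 hpf 5 of the 9 were above the controls and 1, hoxd12a, was over 100. Across 45 members the paralogue number and the change from 5 to 12 hpf had a Pearson correlation of -0.33, as a description only, since members of a cluster share neighbours and all share the same arrays. By number, at least 2-fold higher were 5 of 5 genes of number 9, 3 of 4 of number 10 and 2 of 4 of number 11, with hoxa11a not measured, and 0 of 9 of numbers 12 and 13.

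**Figure D3:**
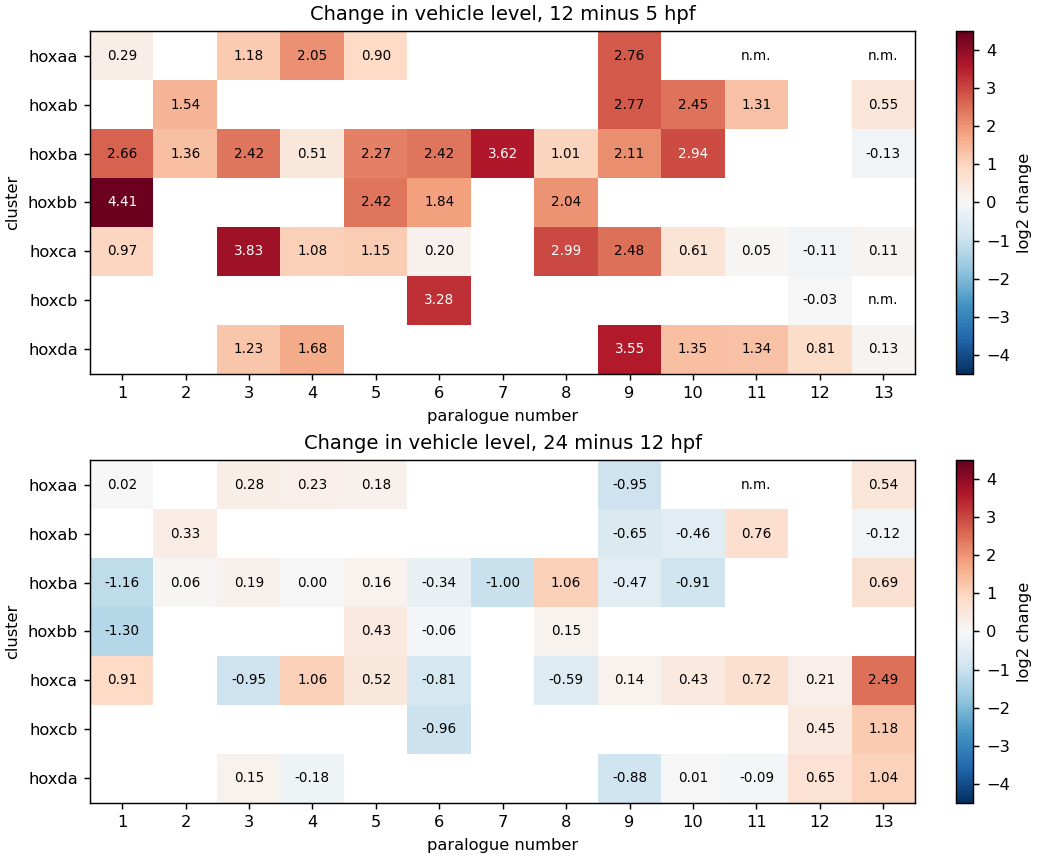
Log2 change in vehicle level of each Hox gene by cluster (rows) and paralogue number (columns), from 5 to 12 hpf in the upper map and from 12 to 24 hpf in the lower one, after scaling between arrays. Empty cells have no gene on the array and n.m. marks genes not above the controls at either stage. In columns 12 and 13 of the upper map the values run from -0.13 to 0.81, and the largest value of the lower map is hoxc13a at 2.49.

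Between 12 and 24 hpf the Hox genes as a whole moved little and not in a single direction. At least 2-fold higher at 24 hpf were 5 of 48 members, against 5.37% of all genes, and at least 2-fold lower were 2, against 2.95%. The median over all 48 was 0.14, against -0.02 over all genes. These counts depend on how arrays are scaled. The green channel at 24 hpf was dimmer overall: the 95th percentile of signal over background was 3710, 4350 and 1978 at the 3 stages. Without any scaling between arrays 1 member was at least 2-fold higher and 14 were lower, as were 579 and 4437 of all 21647 genes tested. After scaling to the 75th percentile 11 members were higher, as were 2075 of all 21647 genes. Relative to the scaled values, the median change of all genes moved from -0.05 to -0.30 without scaling and to 0.49 with the percentile.

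Of the 9 genes of paralogue numbers 12 and 13, 8 were higher at 24 than at 12 hpf in the scaled values, 8 without scaling and 9 with the percentile. Their signals are dim, and dim genes moved little when scaling was dropped: hoxc12a went from 0.21 to 0.18 and hoxb1b, a bright gene, from -1.30 to -2.22. Their mostly steady sign, with hoxa13b changing to above 0 under the percentile, therefore does not set them apart from the brighter members.

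The clearest late gene was hoxc13a. Its vehicle level was 5.89 at 5 hpf, 6.01 at 12 hpf and 8.50 at 24 hpf. That is a change of 2.49 or 5.62-fold in the second interval, and 1.96 without scaling. At 12 hpf 1 of its 2 probes passed the controls, so the fold is approximate. Its probes read 51.5, 65.7 and 516 in signal for the brighter and 53, 55.5 and 116 for the dimmer, so both were highest at 24 hpf. Its copy hoxc13b, with 1 probe at 48.3, 48 and 96, was 2.27-fold higher at 24 than at 12 hpf, against a 12 hpf reading below the controls. The level of hoxd13a, which patterns the distal fin, was 5.94, 6.07 and 7.11, or 2.05-fold higher in the second interval.

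The remaining genes of paralogue numbers 12 and 13 changed less than 2-fold between 12 and 24 hpf. Of these hoxd12a and hoxa13b had changed more before 12 hpf, by 0.81 and 0.55. From 12 to 24 hpf the log2 change was 0.69 for hoxb13a, 0.65 for hoxd12a, 0.54 for hoxa13a, 0.45 for hoxc12b and 0.21 for hoxc12a. The exception in direction was hoxa13b, at -0.12. Without scaling, hoxc13b and hoxd13a were also below 2-fold, at 0.88 and 0.68. These probes are dim, and the constant of 50 added in the background correction makes folds of dim genes smaller than they were.

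Outside paralogue number 13, the members at least 2-fold higher at 24 than at 12 hpf were hoxc4a and hoxb8a, both at 1.06. Without scaling they were at 0.48 and 0.44. The 2 members at least 2-fold lower were both copies of hoxb1, with hoxb1b at -1.30 and hoxb1a at -1.16, and hoxb7a lay just outside the 2-fold limit at -1.0. Without scaling these 3 were at -2.22, -1.80 and -1.74, so the direction held. By contrast hoxc1a, of the same paralogue number, was at 0.91 scaled and 0.34 without.

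Highest at 12 hpf were 19 members and highest at 24 hpf were 28, with none highest at 5 hpf. All 4 genes of paralogue number 6 and 4 of the 5 of number 9 were highest at 12 hpf, as against 1 of the 9 of numbers 12 and 13. For the numbers below 12 this division moves with the scaling. Without scaling it was reversed over all members, with 14 higher at 24 than at 12 hpf and 33 lower. Of the 9 genes of numbers 12 and 13, 8 were higher at 24 hpf with or without scaling. No share of all genes was set beside these counts. Over the whole interval from 5 to 24 hpf, 38 of the 48 members were at least 2-fold higher, against 14.9% of all genes, and 0 were lower, against 15.4%. Here too most members were too dim at 5 hpf to fall 2-fold. The median over all 48 was 1.72, and over all genes -0.02.

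The hoxca cluster, with 11 members on the array, gives the changes along a single cluster. From 5 to 12 hpf the log2 change was 0.97 for hoxc1a, 3.83 for hoxc3a, 1.08 for hoxc4a, 1.15 for hoxc5a, 0.20 for hoxc6a, 2.99 for hoxc8a and 2.48 for hoxc9a. It was 0.61 for hoxc10a, 0.05 for hoxc11a, -0.11 for hoxc12a and 0.11 for hoxc13a. In this cluster every number from 10 up therefore stayed below 2-fold, as did hoxc1a and hoxc6a. From 12 to 24 hpf hoxc10a, hoxc11a, hoxc12a and hoxc13a changed by 0.43, 0.72, 0.21 and 2.49. Of the lower numbers, hoxc1a changed by 0.91, hoxc4a by 1.06 and hoxc5a by 0.52. The others were hoxc9a at 0.14, hoxc8a at -0.59, hoxc6a at -0.81 and hoxc3a at -0.95, so the late rises did not follow the numbering. In hoxda, the first interval gave 1.23 for hoxd3a, 1.68 for hoxd4a, 3.55 for hoxd9a, 1.35 for hoxd10a, 1.34 for hoxd11a, 0.81 for hoxd12a and 0.13 for hoxd13a. In both clusters number 9 gave a larger first change than any higher number, but sizes are not ranked firmly between genes.

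The a and b copies of a gene mostly moved the same way. From 5 to 12 hpf, hoxb6a and hoxb6b changed by 2.42 and 1.84, hoxb8a and hoxb8b by 1.01 and 2.04, and hoxc12a and hoxc12b by -0.11 and -0.03. The widest gap was between hoxc6a at 0.20 and hoxc6b at 3.28, where the split probes of hoxc6a enter. Both copies of hoxb1 rose, by 2.66 and 4.41. The copies have different probes and most of these values are taken against a 5 hpf level at or below the controls, so neither closeness nor a gap between copies was compared with an error.

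In the cortisol channel, which holds the RNA of the treated embryos, most of the same members were higher after 5 hpf, while the calls between 12 and 24 hpf overlapped less. Above the controls there were 22, 39 and 44 members at 5, 12 and 24 hpf, against 74.6%, 48.1% and 46.6% of all genes. The red channel was far dimmer after 5 hpf, with a 95th percentile of signal over background of 7318, 330 and 290. Its levels were quantile-normalized between stages, and the red changes are given with this scaling alone. How far they depend on it was not tested. No share of all genes is given for calls shared between the channels. From 5 to 12 hpf 29 members were at least 2-fold higher, against 11.9% of all genes, and 28 of them were also among the 31 of the vehicle channel. From 5 to 24 hpf there were 33 members, against 15.3%, and all 33 were among the 38. Between 12 and 24 hpf 3 were higher (9.54% of all genes) and 5 lower (8.42%), of which 3 and 1 were shared with the 5 and 2 of vehicle. From 12 to 24 hpf hoxc11a changed by 0.72 in vehicle and -0.46 in cortisol, and hoxa1a by 0.02 and -0.99. Both cortisol values are at the edge of detection. The red limits were 134.7 at 12 hpf and 136.9 at 24 hpf. The 1 probe behind the hoxa1a value had red signals of 137.3 and 138 over local backgrounds of 128 and 135. Its signal over background therefore fell, by a few counts. The only hoxc11a probe above the red limits read 135.3 and 141 over local backgrounds of 128.7 and 139.

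**Figure D4:**
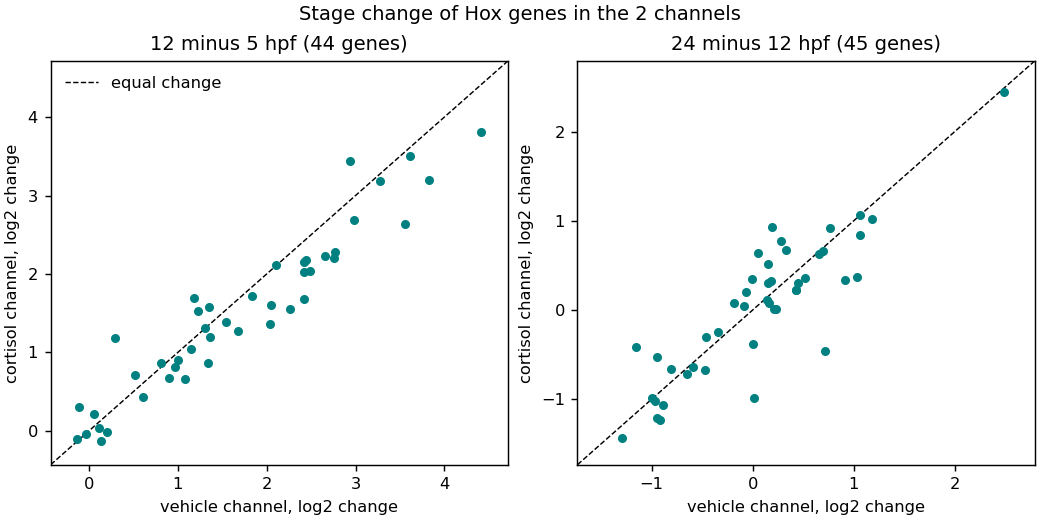
Log2 change between stages of each Hox gene in the vehicle channel (horizontal axis) and in the cortisol channel (vertical axis), from 5 to 12 hpf on the left and from 12 to 24 hpf on the right. Each point is a gene and the dashed line marks equal change. Most points lie near the line, and hoxc13a is the point at the upper right of the right panel.

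Across members the changes in the channels had a Pearson correlation of 0.95 over 44 genes from 5 to 12 hpf and 0.88 over 45 genes from 12 to 24 hpf. The channels hold RNA of different embryos, vehicle and cortisol-treated, but share arrays and probes. The correlations are therefore a description and not an independent repeat.

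The comparison of cortisol with vehicle asked whether early exposure to the steroid altered gene expression at each stage. Both channels measured 19, 39 and 44 Hox genes at the 3 stages in turn. Of these 0 reached a 2-fold difference at any stage, while among all genes 0.57%, 0.58% and 0.325% were at least 2-fold higher at the 3 stages in turn, and 0.14%, 0.321% and 0.787% lower. At a limit of 1.5-fold, too, the count was 0 at every stage, while among all genes 2.94%, 1.58% and 1.26% were higher and 0.932%, 3.24% and 4.43% lower. At these rates a count of 0 among so few members does not set the Hox genes apart from other genes. The constant added in the background correction makes ratios of dim genes smaller too. The count of 0 did not hold with plain background subtraction. That put hoxd9a at least 2-fold higher at 5 hpf, hoxa1a, hoxc11a and hoxd10a at 12 hpf, and hoxd10a at 24 hpf. Lower were hoxa5a, hoxd3a and hoxd11a at 12 hpf, and hoxa4a, hoxb8a, hoxc4a, hoxc11a, hoxd11a and hoxd13a at 24 hpf. Shares of all genes rose as well.

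The median log2 ratio of cortisol over vehicle was -0.03, -0.06 and -0.03 at 5, 12 and 24 hpf, against 0.01, -0.03 and -0.02 over all genes. Below 0 were 10 of 19 members at 5 hpf (46.2% of all genes), 25 of 39 at 12 hpf (55.8%) and 26 of 44 at 24 hpf (53.7%). The pooled SD between probes of a member, 0.16, 0.28 and 0.25 at the stages in turn, describes single probes and is not the error of these medians, for which no error could be computed. The red channel was far dimmer at the later stages, with a 95th percentile of signal over background of 7318, 330 and 290 at the 3 stages in turn, and this limits how small a difference the later ratios can show.

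**Figure D5:**
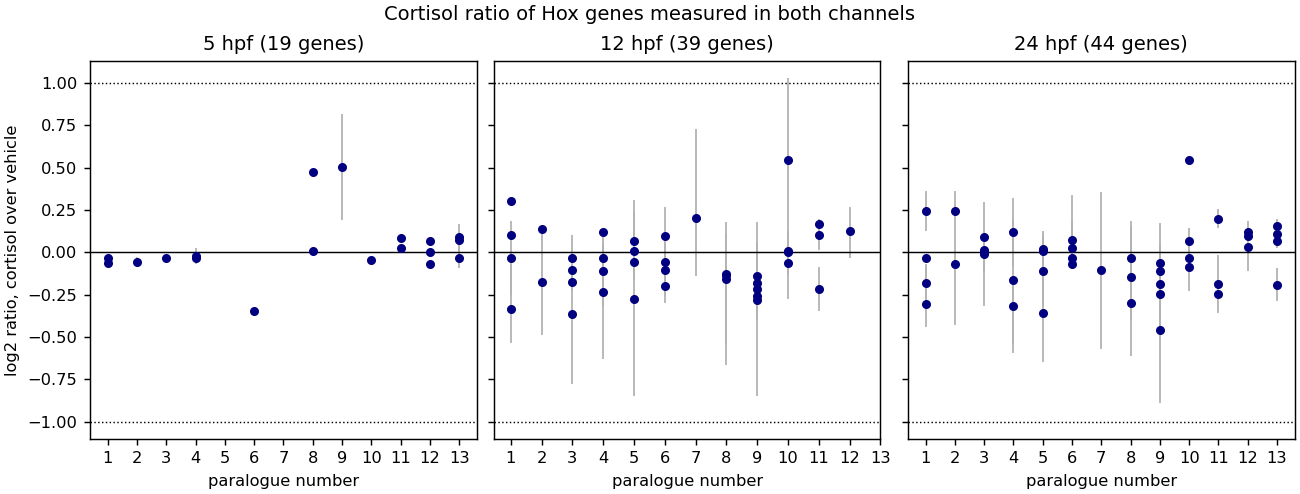
Log2 ratio of cortisol over vehicle of each Hox gene measured in both channels, by paralogue number, at 5, 12 and 24 hpf. Points are means over the gene's probes, grey bars run from the lowest to the highest probe, and dotted lines mark 2-fold. No point reaches a dotted line. At 12 and at 24 hpf all 5 points of paralogue number 9 lie below 0, as do all 3 of number 8.

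Single ratios were small but some recurred. The 5 genes of paralogue number 9 were all below 0 at 12 hpf, from -0.28 to -0.14, and at 24 hpf, from -0.46 to -0.06. These are means, and single probes differed. At least 1 probe was above 0 in hoxa9a, hoxc9a and hoxd9a at 12 hpf, and in hoxa9b and hoxc9a at 24 hpf. The -0.46 of hoxa9a joins probes at -0.89 and -0.03. In the authors' deposited ratio hoxa9a at 12 hpf was 0.13 and hoxc9a at 24 hpf was 0.17, and the other 8 values were below 0. This was not particular to number 9. The 3 genes of paralogue number 8 were also below 0 at both stages. Their deposited ratios were below 0 at 12 hpf too. At 24 hpf these were 0.17 for hoxb8a, 0.22 for hoxb8b and -0.03 for hoxc8a, so the recurrence did not hold there. By the scanner signals, the 4 genes of paralogue number 3 were below 0 at 12 hpf, and 2 of them at 24 hpf. The ratio of hoxb1b was -0.34 at 12 hpf and -0.31 at 24 hpf, with deposited values of -0.29 and -0.37. That of hoxb5a was -0.28 and -0.36, deposited as -0.53 and -0.45, and that of hoxa4a was -0.24 and -0.32, deposited as -0.24 and -0.26. At 12 hpf these like means rest on different probes. In hoxa4a 1 probe was at -0.63, deposited as 0.13, and another at -0.04, deposited as -1.02. In hoxb5a 1 probe was at -0.85, deposited as -0.45, and another at 0.16, deposited as -1.15. All of these gene means are differences of less than 1.5-fold, and no spread between replicates is available to set them against.

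In the other direction hoxd10a was highest, at 0.55 at 12 hpf and 0.54 at 24 hpf, deposited as 0.63 and 0.41. At 12 hpf its 2 probes measured in both channels gave 0.06 and 1.03, and at 24 hpf a single probe was measured, so 1 probe carries the value. At 5 hpf hoxd9a stood at 0.50, with its 4 probes from 0.19 to 0.82, and hoxb8a at 0.48 from 1 probe. The deposited ratio of hoxd9a at 5 hpf was 1.64. Its green signals were dim, at 51.8 to 62.5, while its red signals were 137.3 to 227.9 against a red limit of 126.6. Which of the 2 ratios is nearer the truth was not tested. At 12 hpf the same gene was at -0.26.

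Of 38 members measured in both channels at both 12 and 24 hpf, 18 were below 0 at both stages, 6 above 0 at both and 14 changed sign. In both kinds of ratio at both stages 10 of the 38 were below 0. No such counts over all genes are given for both stages together. At the single stages 55.8% and 53.7% of all genes measured were below 0, so these counts are not read as a trait of Hox genes. The ratios of the stages had a Pearson correlation of 0.61 across the 38 members and of 0.55 across 10769 genes. The stages share probes and dye orientation, and because dyes were never swapped, a dye bias of a probe would recur at each stage and cannot be told apart from a response to cortisol.

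The pathway around the Hox genes was described with lists of known partners and regulators. Hox proteins bind DNA together with the Pbx and Meis families. Of 13 such cofactor genes on the array 5 were at least 2-fold higher at 12 than at 5 hpf and 0 lower, where the share of all genes was 12.1% each way. At 24 hpf 7 were higher than at 5 hpf and 0 lower, against 14.9% and 15.4% of all genes. From 5 to 24 hpf the log2 change was 4.22 for meis1b, 3.46 for meis3, 2.46 for meis2b, 1.95 for pbx1a and 1.82 for meis2a. Between 5 and 12 hpf, the interval in which most Hox genes rose, meis1b changed by 3.89 and meis3 by 3.79.

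Retinoic acid, made from vitamin A, sets Hox expression in the hindbrain and trunk. Of 24 genes for its synthesis, breakdown, binding and receptors, 10 were at least 2-fold higher at 12 than at 5 hpf and 2 lower. The share of all genes was 12.1% each way. From 5 to 24 hpf the change was 3.14 for crabp2a and 2.79 for crabp1b, which encode binding proteins, 2.76 for cyp26c1, which encodes a degrading enzyme, and 2.52 for dhrs3b, which encodes a retinaldehyde reductase. It was -2.69 for rdh10b, which encodes a retinol dehydrogenase. The list's median change from 5 to 12 hpf was 0.47, against -0.02 over all genes tested.

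Upstream of the Hox genes act Cdx and Wnt signals in the tail bud and segment genes in the hindbrain. Of 23 such genes 9 were at least 2-fold higher at 12 than at 5 hpf and 2 lower, where the share of all genes was 12.1% each way. Between 12 and 24 hpf 1 was higher and 7 lower, against 5.37% and 2.95% of all genes. From 5 to 24 hpf the hindbrain regulators mafba, egr2b and mafbb changed by 4.21, 4.11 and 4.07 and the presomitic mesoderm gene msgn1 by 3.11. The mesoderm gene tbx16 changed by -4.03. The caudal gene cdx4, which activates posterior Hox genes, changed by 4.52 and then by -2.22, so it was highest at 12 hpf.

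Chromatin regulators of the Polycomb and Trithorax groups, which keep Hox genes off or on, were called about as often as other genes or less. Of 19 on the array 0 were at least 2-fold higher and 2 lower at 12 than at 5 hpf, where the share of all genes was 12.1% each way. At 24 hpf 2 were higher and 3 lower than at 5 hpf, against 14.9% and 15.4% of all genes, and no difference from the background was tested. The change over the whole interval was -2.34 for the insulator protein gene ctcf, -1.94 for cbx2, -1.50 for the methyltransferase gene ezh2, 1.39 for the demethylase gene kdm6bb and 1.13 for bmi1b.

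Genes that flank Hox clusters served as a comparison by position. A list of 17 was used, of which 12 lie within 5 protein-coding genes of a cluster's end in RefSeq and 14 were on the array. Of these 14, 3 were at least 2-fold higher at 12 than at 5 hpf and 0 lower, with a median change of 0.14. The share of all genes was 12.1% each way. The even-skipped gene evx2, the direct neighbour of hoxd13a, changed by 0.23 from 5 to 12 hpf and by 1.53 from 12 to 24 hpf, and hoxd13a itself by 0.13 and 1.04. Over the whole interval copz2 changed by 1.89, cbx1b by 1.81, jazf1b by 1.41 and snx11 by -0.82. Of the 14, cbx1b, snx11, lnpk and mtx2 do not lie within 5 genes of a cluster's end, and cbx1b is among the 3 higher at 12 hpf.

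Between cortisol and vehicle, the 5 lists held 0 genes at least 2-fold apart at 5 and at 12 hpf. At 24 hpf there were 0 higher and 3 lower, 1 of 18 measured retinoic acid genes and 2 of 18 measured upstream regulators, against 0.787% of all genes. In the other lists 0 of 12 cofactors, 0 of 15 chromatin regulators and 0 of 11 flanking genes were lower. The 3 were cyp26a1, the main retinoic acid hydroxylase of the early embryo, at -1.08, and wnt8a and msgn1 at -1.11 and -1.05. In the authors' deposited ratio they were at -1.28, -2.28 and -1.39.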

How the data were processed

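In all, 2-colour Agilent arrays of whole zebrafish embryos were analysed for 3 stages. Per the file headers, the authors deposited for each spot the pixel intensity of both colours with its local background, and a log10 ratio (red over green) that their software had normalized. That ratio was rescaled to log2 and serves as an alternative. Agilent Feature Extraction is named in the submitters' processing notes, with no version. The first decimals of green signals match multiples of 1/8 in 99.8% of spots at 5 hpf and of 1/6 in 99.3% at 12 hpf. At 24 hpf 99.4% match multiples of 1/2, as a single array gives. The first 2 sets are therefore read as means over arrays.

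Background was corrected with normexp (offset 50; limma 3.58.1, R 4.3.3), leaving out 12, 9 and 0 spots whose local background exceeded 2 times its median. Ratios were normalized by loess within the array, with weight 0 for 1417 control spots. Levels of a channel were quantile-normalized between stages. A gene's value is the mean over its probes that passed the controls at 1 or more stages, and a ratio is the mean over probes measured in both channels. A stage change was taken for genes above the controls at either stage. Where a probe did not pass the controls at a stage, its own reading was used and not the limit. Such folds are approximate, and a level set at the limit would give a smaller fold. Computations used Python 3.11.15, pandas 2.3.3, numpy 2.4.6 and matplotlib 3.10.9. The normalization was tested by planting known changes in bright probes of these arrays, and their direction was recovered. Dim probes were not tested in this way.

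Members and lists were chosen with earlier results of these data known. Every Hox gene could be named; of each list up to 5 genes with the largest change from 5 to 24 hpf and those with the largest cortisol ratio are named. In addition cdx4 was named after its values had been seen. Alternatives tried were other detection limits, scalings, background corrections, probe rules, filters and the deposited ratio. No sequences of genes or probes were used here, and no coordinates are given because the build of the array's annotation is not stated in the files.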

Additional observations from a re-analysis of the deposited data

How the results depend on the processing

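The count of members at least 2-fold higher at 12 than at 5 hpf, and that of members above the controls at 12 and 24 hpf, stayed within 1.5 times under every alternative run. The size of the rise did not: the median log2 change of the members tested was 1.36 as reported, 4.82 with plain subtraction and 2.70 with the brightest probe. At 5 hpf, requiring all probes of a gene left 5 of the 23 members. Plain background subtraction gave 1 member 2-fold lower at 12 than at 5 hpf (main value 0), and the brightest probe gave 1 lower at 24 than at 5 hpf (main value 0), hoxc6a. Among all genes 6292 of 22312 and 3662 of 22575 were lower in turn. From 12 to 24 hpf, the 5 higher members became 11 with the 75th percentile and 13 with plain subtraction. They became 3 in the cortisol channel and 8 with the brightest probe. Among all genes 2075 of 21647, 3178 of 21647, 1422 of 14911 and 1494 of 21630 were higher in turn. The 2 lower ones became 9 with plain subtraction, 5 in the cortisol channel and 5 with the brightest probe. Among all genes 3554 of 21647, 1256 of 14911 and 749 of 21630 were lower in turn. Without scaling between arrays, an alternative chosen after seeing the data as was leaving out the bright early probes, there were 1 higher and 14 lower. Of all 21647 genes 579 were higher and 4437 lower. In cortisol over vehicle, where 0 members passed 2-fold, the deposited ratio gave 2 higher at 5 hpf (hoxd9a and hoxd11a), 1 at 12 hpf and 1 at 24 hpf (hoxa1a at both, at 1.48 and 2.72). In that ratio 3.05%, 2.83% and 3.64% of all genes were higher at the 3 stages in turn. Plain subtraction gave 1 higher at 5 hpf, 3 higher and 3 lower at 12 hpf, and 1 higher and 6 lower at 24 hpf. Of all genes 2.9% were higher at 5 hpf, 5.48% higher and 6.26% lower at 12 hpf, and 5.21% and 8.75% at 24 hpf. Median centring in place of loess gave 29 lower at 12 hpf and 18 at 24 hpf, where 71.5% and 59.5% of all genes were lower. The Hox medians were -1.50 and -0.92, and the medians of all genes -1.70 and -1.21. No result changed sign from one called direction to the other; the causes of the other moves were not tested. No paired analysis was possible because there is 1 set of values per stage with no replicate numbers, and for the same reason no replicate could be left out.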

Other observations

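Some members were measured in a single channel and have no ratio. At 5 hpf hoxa5a, hoxa13b, hoxb9a and hoxc9a passed the controls in vehicle alone, and hoxb7a, hoxb8b and hoxd3a in cortisol alone. At 12 hpf hoxa13b, hoxb13a, hoxc13a and hoxd13a, all of paralogue number 13, passed in vehicle alone, as did hoxa13a, hoxa13b and hoxb4a at 24 hpf. With the reading of the other channel used as it stood, the largest ratio in favour of the detected channel was 1.23-fold, for hoxa13a at 24 hpf. Those readings lie below the controls, so the size of these differences cannot be told.

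The deposited and the scanner-based ratio had the same sign in 15 of 19 members at 5 hpf, 29 of 39 at 12 hpf and 28 of 44 at 24 hpf. The widest disagreement was hoxa1a, whose ratio from the scanner signals was 0.30 at 12 hpf and -0.04 at 24 hpf, against 1.48 and 2.72 in the authors' deposited ratio. It rests on 1 probe measured in both channels, with a green signal of 63.3 at 12 hpf and 57 at 24 hpf, close to the limit of the controls.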
